A study of Homo sapiens with 6 samples.

Results

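The DMSO-only intergenic regions are stretches of open chromatin that MM.1S cells showed in every DMSO library and in no CB-6644 library. They were selected on the peak lists themselves. Peaks of the 6 lists that shared at least 1 bp were merged into 89196 regions. A region was a member if it held a peak in all 3 DMSO libraries and none in the 3 CB-6644 libraries, lay clear of the 1000 bp on either side of each start (TSS) of a protein-coding transcript in GENCODE 44, and had its midpoint outside every protein-coding gene. There were 1886 members among 37496 intergenic regions away from promoters (5.03%). Over all merged regions 4.50% were DMSO-only, and the gene-body regions away from promoters held 1955 (5.60%). The mirror set, with a peak in all CB-6644 libraries and in no DMSO library, held 258 intergenic regions (0.688%). These presences and absences are what chose the members, so they are described here and not tested.

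MM.1S is an established human multiple myeloma cell line. The libraries were made by Omni-ATAC, in which a transposase cuts and tags accessible DNA, from live cells sorted by flow cytometry. Cells of 3 libraries had been given 120 nM CB-6644, an inhibitor of the ATPase pair RUVBL1/2, for 72 h, and cells of the other 3 had been given DMSO. The design holds 1 cell line, 1 dose and 1 time, cells that died were not sampled, and the labels do not say whether replicates were separate cultures, so p-values measure only the spread between these libraries.

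RUVBL1 and RUVBL2 are AAA+ ATPases that serve as subunits of chromatin remodeling complexes such as INO80, SRCAP and TIP60. Open regions between genes are mostly enhancers and insulators, where sequence-specific factors bind. In plasma cells and myeloma IRF4 is a central factor at such sites. ATF4, the effector of the integrated stress response, pairs with C/EBP proteins on a composite site that joins a CRE part and a C/EBP part. CTCF marks insulators and loop anchors.

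The ATF4-CEBP site was in 8 of the 12 strongest members and in 13.5% of all members, against 4.49% of all intergenic regions. A member's strength was its peak's percentile by −log10 p within the list of each DMSO library, and members were ranked by the lowest of their 3 percentiles. The site was searched as the consensus TGATGNAA within 100 bp of the summit. Of the 12 strongest, 4 held the E-box CAGGTG, 3 the RUNX consensus, and 2 no consensus of the 20 searched. None held the IRF consensus GAAANNGAAA. The sequences below are shown because they place the ATF4-CEBP site (capitals, on either strand) in the 50 bp on either side of the strongest summit. They are plus-strand hg38 reference sequences, each with the gene whose start is nearest.
TFEC, chr7:115707430-115707530: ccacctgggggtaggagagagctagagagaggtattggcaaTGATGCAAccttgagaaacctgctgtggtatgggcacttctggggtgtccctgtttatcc
GALNT12, chr9:98867845-98867945: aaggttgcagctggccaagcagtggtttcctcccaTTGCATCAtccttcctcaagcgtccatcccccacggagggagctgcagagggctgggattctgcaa
DCUN1D5, chr11:103028487-103028587: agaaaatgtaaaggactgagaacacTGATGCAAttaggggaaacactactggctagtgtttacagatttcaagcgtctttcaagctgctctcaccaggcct
GSK3B, chr3:120160066-120160166: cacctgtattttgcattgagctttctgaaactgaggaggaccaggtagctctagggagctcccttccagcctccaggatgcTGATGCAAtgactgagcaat
RCC2, chr1:17441545-17441645: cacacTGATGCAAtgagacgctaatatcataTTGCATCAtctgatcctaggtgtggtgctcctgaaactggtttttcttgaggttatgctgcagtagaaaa

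The region nearest to TFEC, a helix-loop-helix leucine zipper factor gene, lay 452 kb downstream of its start. Its peak stood at the 84.4th, 80.6th and 80.7th percentile in DMSO 1, 2 and 3, with fold enrichments of 38.0, 30.3 and 25.7 over local background. The region in a long non-coding RNA gene near GALNT12, which codes for a mucin-type glycosyltransferase, stood at the 86.8th, 85.6th and 78.7th percentile. The region near DCUN1D5, a gene for a cullin neddylation cofactor, stood at the 79.3rd, 82.4th and 77.3rd. All 3 were thus among the stronger peaks of every DMSO list, and the nearest CB-6644 peaks were 24.4, 18.6 and 7.39 kb away.

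The region near GSK3B, the glycogen synthase kinase 3 beta gene, stood at the 66.1st, 71.5th and 67.3rd percentile. The RCC2 region held the site at 2 places in opposite orientation, 1.98 kb upstream of the gene, and stood at the 73.9th, 73.8th and 65.2nd percentile. A CB-6644 peak lay 1.41 kb from it. Among the other strongest members, the one 4.38 kb upstream of METTL7A reached the 67.9th, 72.9th and 72.4th percentile with no consensus of the 20, and its sequence is printed for contrast.
METTL7A, chr12:50919070-50919170: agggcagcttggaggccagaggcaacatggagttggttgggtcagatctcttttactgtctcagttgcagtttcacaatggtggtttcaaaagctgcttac

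Most members were far weaker than these. The median percentile was 22.1 in DMSO 1, 26.5 in DMSO 2 and 24.1 in DMSO 3, and the median fold enrichment was 9.64, 10.7 and 10.2. In 75 members all 3 percentiles were over 50, and in 636 the lowest was under 10. Intergenic regions listed in all 6 libraries had medians of 65.5, 62.6 and 59.7 in the same libraries. The 258 CB-6644-only regions were as weak in their own lists, with a median of 23.9 against 24.1 for members when each region's percentiles were averaged. The distribution of members was skewed to the low end in each DMSO library.

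**Figure D1:**
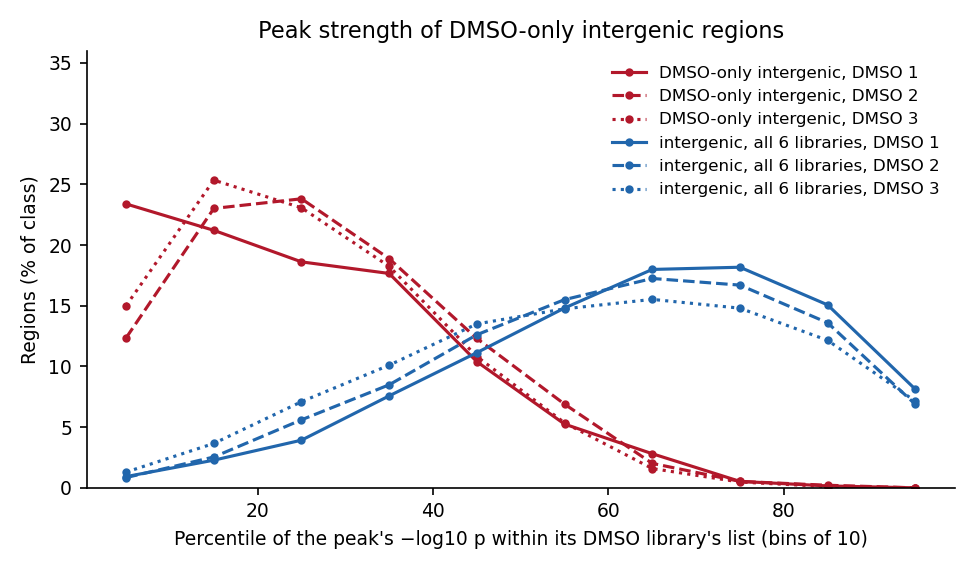
Share of regions (y axis, %) by percentile of −log10 p within the peak list (x axis, bins of 10) for DMSO-only intergenic regions (red) and intergenic regions of all 6 libraries (blue), 1 line per DMSO library. The fullest bin of members lies below percentile 30 in each library and that of shared regions between 60 and 80.

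The 3 DMSO libraries placed the members alike. In 1834 of 1886 members each DMSO library had a single peak. The 3 summits lay a median of 39 bp apart, and within 50 bp in 65.0% of members against 76.7% of regions in all 6 libraries. The highest percentile came from DMSO 1 in 610 members, from DMSO 2 in 730 and from DMSO 3 in 546. Their median width was 274 bp, against 462 bp for regions in all 6 libraries and 295 bp for all intergenic regions. It was 224 bp for CB-6644-only regions and 202 bp for those with a peak in exactly 3 libraries of both groups. A merged region spans the peaks of all libraries that list it.

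The absence of a CB-6644 peak has to be read against what each list could hold. The files give no read totals. The local background recovered from each peak's fold and −log10 p ran from 6.40 to 9.08 tags per kb in the DMSO libraries and was 5.67, 3.20 and 7.05 in CB-6644 1, 2 and 3, so CB-6644 2 had the lowest background, with the longest list of the 3 (71781 peaks). The scaling below did not use these values per kb, and shares scaled per kb were not computed. It used the ratio of the lowest backgrounds recovered at any peak, which are the values per kb times the shortest peak length. The shortest peaks were 91, 131 and 152 bp in DMSO 1, 2 and 3. They were 138, 65 and 139 bp in CB-6644 1, 2 and 3. So scaled, the weakest of the 3 DMSO peaks would still have passed a CB-6644 library's lowest listed −log10 p in 98.5% of members for CB-6644 1. The share was 99.4% for CB-6644 3. For CB-6644 2 it was 37.1%, or 699 members. All 12 strongest members were among the 699. At 2 times the lowest listed −log10 p, 60 members (3.18%) would have passed in all 3 CB-6644 libraries. Over the intergenic regions with a peak in all DMSO libraries, 83.9% to 84.7% of those passing the same scaling were in fact listed, and 43.5% to 47.2% of those not passing it, which numbered 89, 4884 and 23 for CB-6644 1, 2 and 3.

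The count of members depended on the length of the lists. When each list was cut to as many top peaks as the shortest holds, 864 DMSO-only and 489 CB-6644-only intergenic regions were called, a ratio of 1.77 in place of 7.31, and 732 members were among the 864. With the 20000 strongest peaks of each list the numbers were 311 and 245, with 4 members among the 311. The shortest peak was 91 bp in DMSO 1 and 65 bp in CB-6644 2, and at least 100 bp in the other 4 libraries. Scaled to equal background per kb and held to a −log10 p of at least 20, these 4 gave 1523 and 1204, with 477 members found again.

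Regions listed in all 3 DMSO libraries and in only 1 CB-6644 library numbered 1512, and the lone peak was in CB-6644 1 in 530, in CB-6644 2 in 553 and in CB-6644 3 in 429. Their median DMSO percentile was 28.1, against 24.1 for members, 35.4 for the 3365 regions with 2 CB-6644 peaks and 62.2 for the 14799 with all 3. The lone CB-6644 peak had a median percentile of 12.7. A CB-6644 peak lay within 500 bp of 90 members (4.77%), the median distance to one was 12.3 kb, and for 304 members it was over 50 kb.

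Members lay far from genes. The median distance to the nearest protein-coding gene start was 119 kb, against 69.7 kb for all intergenic regions and 55.8 kb for those in all 6 libraries. Of the members 37.4% (95% Wilson interval 35.2% to 39.6%, counting error only) were over 200 kb from a gene start, against 27.4% of all intergenic regions and 26.4% (21.4% to 32.1%) of CB-6644-only ones. Over 1000 kb away lay 107 members (5.67% against 3.88%). The distance also fell with the number of CB-6644 libraries listing a region, from 119 kb with none to 86.4, 84.7 and 55.8 kb with 1, 2 and 3.

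**Figure D2:**
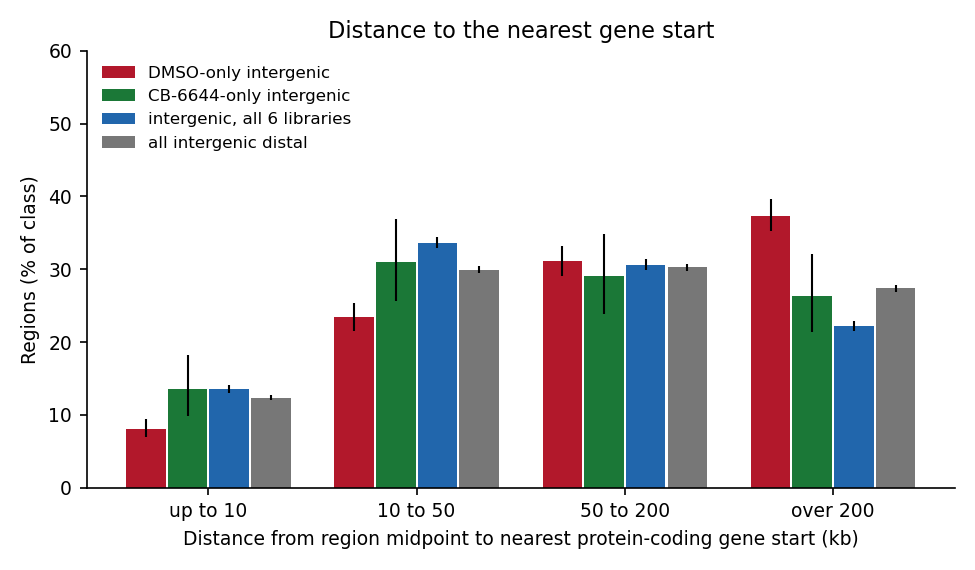
Share of regions (y axis, %) by distance from the region's midpoint to the nearest protein-coding gene start (x axis, kb) in 4 classes, with 95% Wilson intervals as error bars. Of DMSO-only intergenic regions 37.4% lie over 200 kb away, against 22.2% of regions in all 6 libraries.

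About as many members as other regions lay in lncRNA genes (31.8% against 29.0% of all intergenic regions), but few touched the 1000 bp on either side of an lncRNA start (2.01% against 5.19%). CB-6644-only regions (2.71%) and those with a peak in exactly 3 libraries of both groups (2.96%) were similarly low. Regions in all 6 libraries had 8.16%. By chromosome the share of intergenic regions that were members ran from 1.96% on chromosome 22 and 2.00% on chromosome 19 to 6.47% on chromosome 4, leaving out chromosome Y. The farthest were 2 regions on chromosome 22, 4090 and 3597 kb from the start of OR11H1, and 1 on chromosome 21, 2768 kb from that of TPTE. They began at positions 11438429 and 11931188 on chromosome 22 and 7753402 on chromosome 21. Peaks were not filtered here for repeats or mappability, and whether reads mapped correctly at these 3 places was not tested. At the TSS limit, members just inside lay 1052 to 1144 bp from a start (near DCT, SERPINA7 and OR13J1), and DMSO-only regions just outside lay 811 to 917 bp away (near EPB41L1, CELA2A and EEF2).

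Members were poor in G and C. The median GC content within 100 bp of the summit was 42.04%, against 47.3% for all intergenic regions, 48.3% for CB-6644-only and 50.2% for those in all 6 libraries. Low GC was not particular to members. DMSO-only regions in gene bodies had 41.3%, and intergenic regions with 2 DMSO peaks and no CB-6644 peak had 42.3%. The libraries differed in GC as well. The intergenic regions of DMSO 1, 2 and 3 had medians of 48.3%, 47.8% and 47.3%, and those of CB-6644 1, 2 and 3 had 48.8%, 49.8% and 48.8%. In shared regions of 35% to 40% GC the mean percentile was 38.0, 46.6 and 50.4 in the DMSO libraries and 41.9, 28.8 and 40.1 in the CB-6644 libraries, so CB-6644 2 stood lowest and the groups overlapped (exact two-sided permutation test, p = 0.3). The part of GC content in the calls was not tested.

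The ATF4-CEBP consensus was present in 254 members, or 13.5%. It was present in 4.49% of all intergenic regions, in 3.10% of those in all 6 libraries, in 3.45% of those with a peak in exactly 3 libraries of both groups and in 2.33% of the CB-6644-only regions. DMSO-only regions in gene bodies, which the intergenic limit left out, had 12.3%. Read backwards without complementing, the same letters matched 2.65% of members. Weighted to the GC classes of the members, all intergenic regions had 5.59%. In each of 5 GC classes members were above all intergenic regions, from 10.9% against 6.07% at 35% to 40% GC to 13.6% against 2.42% at 50% and over.

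The site was concentrated where the DMSO peaks had their summits. Within 50 bp of the summit there were 93.8 matches per 1000 members and 100 bp, and from 150 to 250 bp away 31.5. In regions of all 6 libraries the densities were 15.2 and 18.7, so no such concentration was seen. The form TGATGCAA, with C at the variable base, was the most frequent, in 6.15% of members against 0.831% of regions in all 6 libraries. The form with A followed with 4.77% against 1.20%, the form with T had 2.65% against 0.622%, and the form with G was in 0.212% against 0.493%. More than 1 site was found in 18 of the 254 members.

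The share with the site was lower where a CB-6644 library listed the region. Among intergenic regions with peaks in all 3 DMSO libraries it was 13.5% with no CB-6644 peak, 5.75% with 1, 4.07% with 2 and 3.10% with 3. In regions with 2 or 1 DMSO peaks and no CB-6644 peak it was 7.89% and 7.35%. Within the members it was 19.7% (16.4% to 23.5%) in the 482 strongest by lowest percentile and 11.1% (8.59% to 14.3%) in the 467 weakest. It was 17.3% in the 699 members that passed the scaling to all 3 CB-6644 libraries and 11.2% in the others. When the lists were equalized it was 16.3% with equal peak numbers, 10.9% with the 20000 strongest peaks and 10.7% with scaled background, against 2.45%, 2.86% and 2.33% in CB-6644-only regions.

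**Figure D3:**
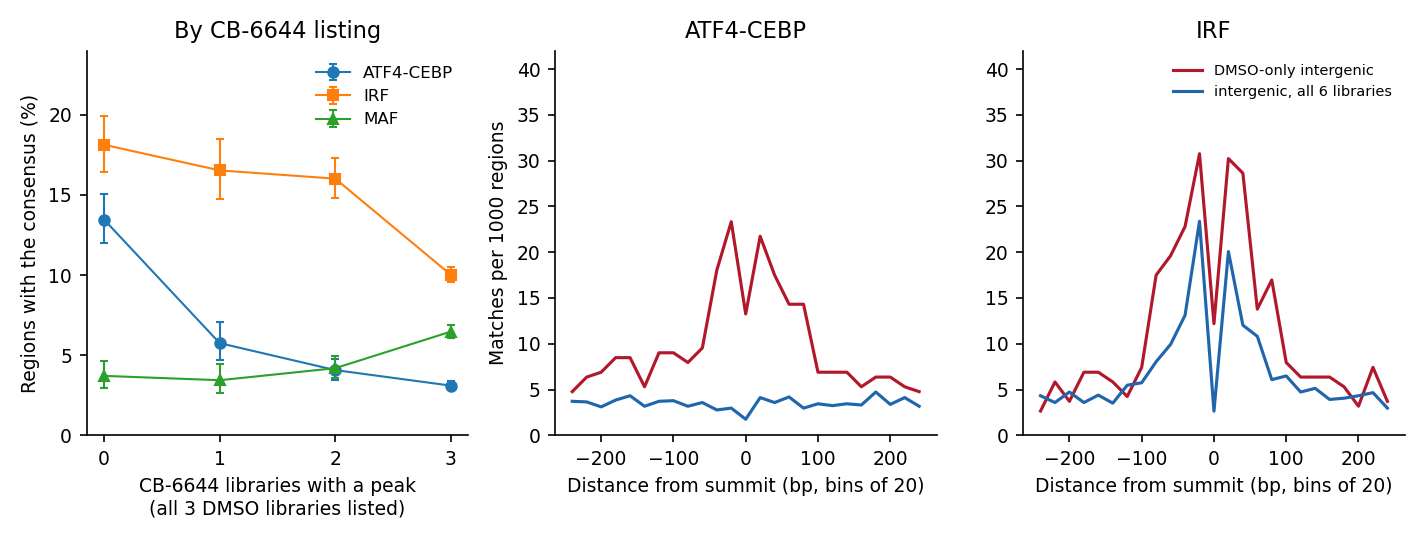
Left, share of intergenic regions with 3 DMSO peaks that hold each consensus (y axis, %, 95% Wilson intervals) by the number of CB-6644 libraries with a peak (x axis). Middle and right, matches per 1000 regions (y axis) of ATF4-CEBP and IRF by distance from the summit (x axis, bp), where the ATF4-CEBP curve of members rises around the summit and that of regions in all 6 libraries (blue) is flat.

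The IRF consensus was found in 342 members, or 18.1%, against 11.4% of all intergenic regions and 4.65% of CB-6644-only ones. Weighted to the members' GC classes, all intergenic regions had 17.3% and those with a peak in exactly 3 libraries of both groups 16.6%, so the members' share was near the background at their GC content. Near the summit members had 125 matches per 1000 regions and 100 bp, against 26.0 from 150 to 250 bp away, and shared regions had 71.2 and 20.3. Both an ATF4-CEBP and an IRF site were in 31 members, 40 held ATF4-CEBP and RUNX, and 39 held IRF and RUNX. Together 565 members (30.0%) held at least 1 of ATF4-CEBP and IRF, against 15.4% of all intergenic regions. These pooled shares were not weighted to GC, and the IRF part was near its weighted background. The next sequences show the 3 strongest members with an IRF site and the 3 strongest with an EICE site (GGAANNGAAA, the ETS-IRF composite element) within 50 bp of the summit. The site is in capitals, the IRF sites of SOCS6, FYCO1 and GRIA1 first and the EICE sites of PSME3IP1, TMC3 and CCL1 after them.
SOCS6, chr18:70820434-70820534: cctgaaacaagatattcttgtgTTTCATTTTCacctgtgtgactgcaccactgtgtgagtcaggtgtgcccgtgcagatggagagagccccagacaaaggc
FYCO1, chr3:46010699-46010799: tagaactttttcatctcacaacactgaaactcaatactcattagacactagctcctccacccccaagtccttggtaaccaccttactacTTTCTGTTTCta
GRIA1, chr5:153429869-153429969: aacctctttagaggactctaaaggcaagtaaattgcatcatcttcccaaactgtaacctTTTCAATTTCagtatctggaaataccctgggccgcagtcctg
PSME3IP1, chr16:57152242-57152342: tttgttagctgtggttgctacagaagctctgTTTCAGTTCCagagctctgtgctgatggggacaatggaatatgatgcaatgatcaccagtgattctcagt
TMC3, chr15:81466917-81467017: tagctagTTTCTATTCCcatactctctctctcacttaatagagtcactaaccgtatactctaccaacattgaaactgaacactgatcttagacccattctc
CCL1, chr17:34377208-34377308: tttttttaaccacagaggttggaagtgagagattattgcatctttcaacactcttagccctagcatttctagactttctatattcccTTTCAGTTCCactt

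The SOCS6 region, 531 kb from the gene, stood at the 64.5th, 59.5th and 57.2nd percentile in DMSO 1, 2 and 3. The FYCO1 region stood at the 62.9th, 65.0th and 56.3rd, and the GRIA1 region, which also held an ATF4-CEBP site, at the 54.5th, 57.5th and 60.1st. The CCL1 region, 13.9 kb upstream of this chemokine gene, stood at the 59.2nd, 60.7th and 62.1st, with a CB-6644 peak 1.33 kb away. The other EICE members were stronger. The PSME3IP1 region, which also held an ATF4-CEBP site, was the 4th strongest member, at the 82.3rd, 80.9th and 72.9th percentile, and the TMC3 region stood at the 71.8th, 68.1st and 65.9th.

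Among the other consensus sequences, RUNX TGTGGTT was in 17.3% of members against 12.4% of all intergenic regions, or 15.2% after weighting to GC. So weighted, regions in all 6 libraries had 19.6%, above members, and those with a peak in exactly 3 libraries of both groups 10.9%. DMSO-only regions in gene bodies had 17.0% RUNX, unweighted. The GATA-factor consensus (AGATAA) was in 11.2% against 9.03%, but its reversed letters matched 16.4% of members. AP-1 TGANTCA (12.7% against 12.3%) and EICE (6.47% against 5.45%) were near the background. After weighting to GC, EICE was in 7.11% of all intergenic regions and 9.64% of those in all 6 libraries, both above members. CTCF was in 20 members, 1.06% (0.688% to 1.63%), against 5.82% of all intergenic regions and 3.89% after weighting. The low share was not particular to members. CTCF was in 0.972% of DMSO-only regions in gene bodies and in 0 of 258 CB-6644-only intergenic regions. Regions with a peak in exactly 3 libraries of both groups had 8.39%. The E-boxes CAGGTG (23.9% against 29.4%) and CAGCTG (11.8% against 17.3%) had weighted backgrounds of 23.4% and 13.2%. MAF TGCTGAC was in 3.71% against 5.86%, with 15.9% in CB-6644-only regions, and NF-kB GGGNNNTTCC in 2.07% against 4.13%. Their weighted backgrounds were 5.38% and 3.27%. Finally, 362 members (19.2%) held no consensus of the 20.

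**Figure D4:**
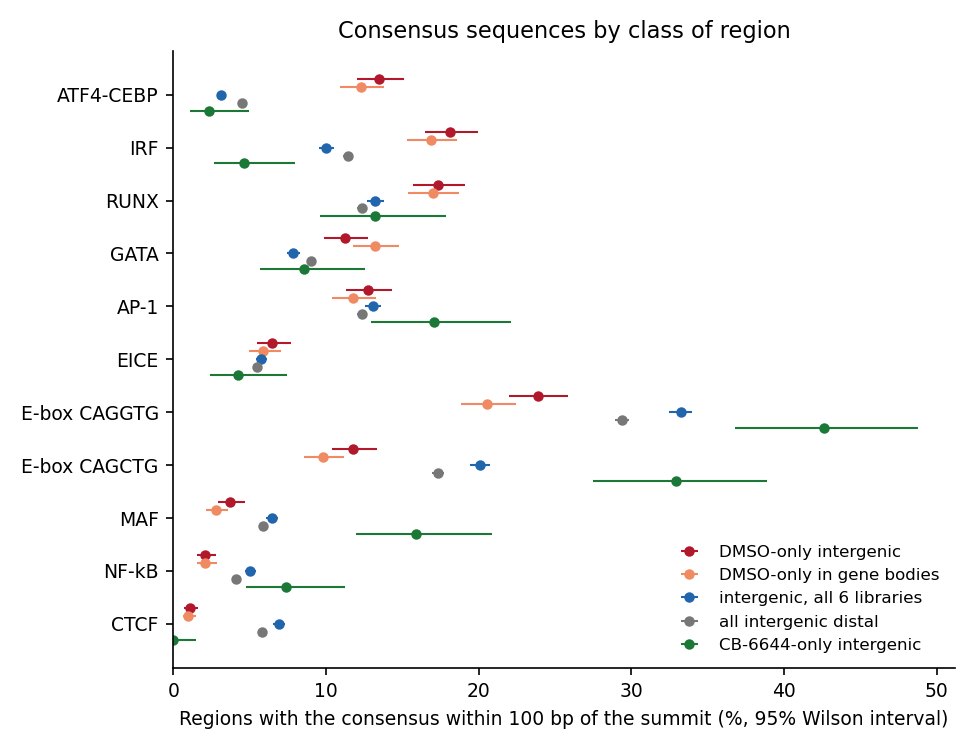
Share of regions with each consensus within 100 bp of the strongest summit (x axis, %, points with 95% Wilson intervals) for 11 consensus sequences (y axis) in 5 classes of region. DMSO-only regions between genes and in gene bodies stand apart from the rest for ATF4-CEBP, with 13.5% and 12.3%.

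Regions listed in all 6 libraries were not chosen by the contrast, so their ranks could be tested over libraries. For each library the mean percentile by −log10 p of a set of shared regions was computed among all shared regions of the same kind. The 459 shared intergenic regions with an ATF4-CEBP site had means of 51.3, 53.5 and 54.3 in DMSO 1, 2 and 3 and of 46.4, 44.6 and 45.9 in CB-6644 1, 2 and 3. They ranked higher in every DMSO library than in any CB-6644 library, by 7.37 points (two-sided, exact permutation over the 6 libraries, p = 0.1, and 0.286 after Benjamini-Hochberg adjustment over 20 consensus sequences). With 3 libraries a group no p under 0.1 is possible. Within GC classes the difference was 6.19 points, and the 476 shared regions in gene bodies gave 7.72 points. Of the 459 regions 64.3% had a higher mean percentile in DMSO.

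The 958 shared intergenic regions with a MAF site went the other way, with 46.5, 46.5 and 46.6 in the DMSO libraries and 54.2, 53.5 and 53.6 in the CB-6644 libraries, a difference of -7.25 points (exact permutation test, p = 0.1, adjusted 0.286). For the 1482 regions with an IRF site the means were 46.9, 51.4 and 52.3 in DMSO and 48.3, 41.5 and 46.6 in CB-6644. The groups overlapped, since DMSO 1 stood below CB-6644 1, and the difference of 4.72 points had p = 0.2 in the exact permutation test. Within GC classes it was 2.52 points and the groups no longer overlapped (exact permutation test, p = 0.1). RUNX regions differed by 2.21 points with overlapping groups (exact permutation test, p = 0.2), and CTCF regions by -1.68 (exact permutation test, p = 0.6). Full separation of the groups was not limited to ATF4-CEBP and MAF. It was also seen for CEBP (2.31 points), ETS (3.62), CAGGTG (-1.11), CAGCTG (-2.70) and NF-kB (-4.01), each with p = 0.1 in the exact permutation test. None of the 20 passed an adjusted p of 0.05, which 3 against 3 libraries cannot reach.

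Shared regions within 20 kb of a member numbered 1017 of 14799. Their mean percentiles were 52.0, 52.5 and 52.6 in the DMSO libraries and 51.1, 50.3 and 50.9 in the CB-6644 libraries, 1.57 points higher in DMSO (exact permutation test, p = 0.1). The direction depended on distance and on the measure. It was 3.14 points for the 707 neighbors from 5 to 20 kb away but -0.08 points for all neighbors within 10 kb, and -1.48 points by fold enrichment. Genes with at least 2 members nearest to them within 200 kb had 104 shared promoter regions. These had means of 50.7, 50.7 and 50.9 in DMSO and of 49.98, 49.9 and 50.7 in CB-6644, 0.60 points higher in DMSO (exact permutation test, p = 0.1), and -1.72 points by fold enrichment. No direction is therefore given for the neighbors or the promoters.

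**Figure D5:**
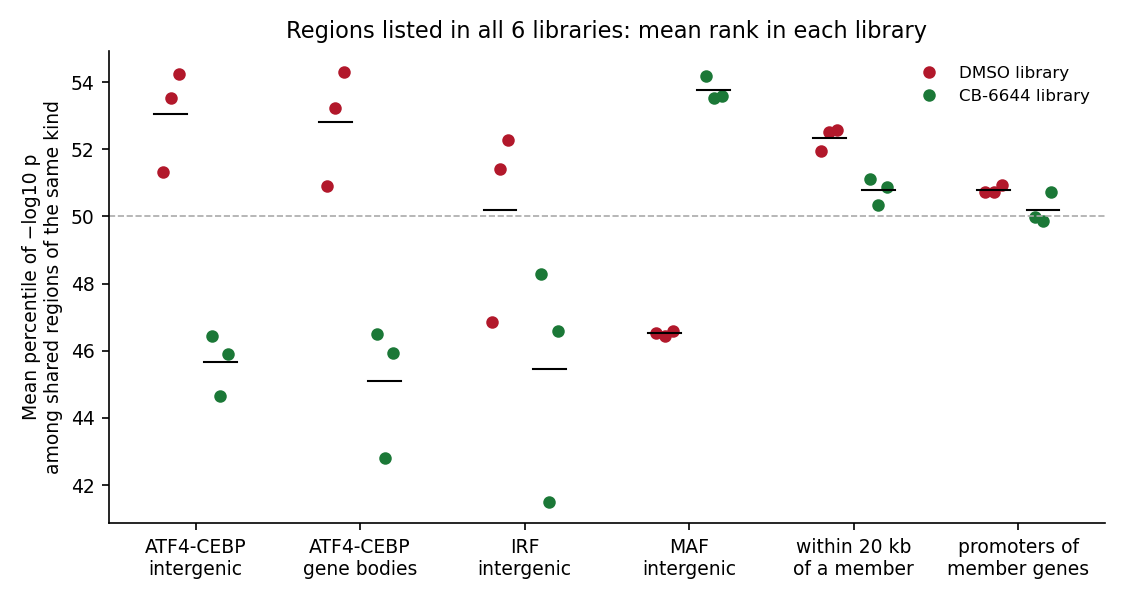
Mean percentile by −log10 p (y axis) of sets of regions listed in all 6 libraries (x axis), 1 point per library (DMSO red, CB-6644 green) with the group mean as a bar, where 50 is the mean of all shared regions of that kind. DMSO libraries stand above CB-6644 libraries for ATF4-CEBP sites and below them for MAF sites.

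Of the members 1181 lay within 200 kb of a protein-coding gene start, nearest to 1049 genes, which is 11.7% of the 9000 genes with any intergenic region that near. Of these 117 had 2 or more members and 15 had 3. The 117 became 226 without DMSO 1, 241 without DMSO 3 and 177 without CB-6644 2, and 26 with equal numbers of peaks. ZEB2, a zinc finger repressor gene, led the 15 by mean percentile, with regions 41.4, 52.2 and 166 kb upstream. The first stood at the 55.3rd, 53.2nd and 50.9th percentile in DMSO 1, 2 and 3, the second at the 38.4th, 57.2nd and 59.8th, and the third at the 3.84th, 26.5th and 18.5th. The third was thus at the bottom of the DMSO 1 list. CCDC71L had 3 regions 49.7 to 181 kb downstream, of which the middle one held an ATF4-CEBP site and stood at the 58.3rd, 67.8th and 62.5th percentile.

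PLA2G4A, the cytosolic phospholipase A2 gene, had 1 region upstream and 2 downstream, of which the one 166 kb away held an ATF4-CEBP site (40.1st, 33.6th and 30.4th percentile). The 3 regions assigned to NAPG, a gene of vesicle fusion, lay 87.5, 117 and 127 kb downstream of its start and formed 1 run of 39.7 kb. The nearest start of any protein-coding transcript was closer, 59276, 29383 and 19788 bp from their edges. The other 4 of the first 8 genes were ECRG4, HMHB1, DIPK1A and SMIM31, with mean percentiles of 22.6 to 26.8. One of the ECRG4 regions was as high as the 57.6th, 50.3rd and 46.5th percentile.

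Members seldom stood in runs. With gaps of at most 50 kb, 1573 stood alone, 131 pairs and 13 triplets were found, and 3 runs had 4. Of these 3, one was nearest to FAM135B, over 1000 kb away. Another, of 41.7 kb on chromosome 7 (68376250 to 68417949), was nearest to SPDYE21, also over 1000 kb away. The last, of 128 kb on chromosome 5 (89308664 to 89436762), lay upstream of MEF2C, a myocyte enhancer factor gene with roles in B cells. The MEF2C run held 13 intergenic regions in all, 6 of them listed in all 6 libraries. Its members lay 405 to 532 kb from the MEF2C start, in an lncRNA gene. They stood at the 17.0th, 10.2nd and 8.04th, the 28.4th, 37.9th and 34.6th, the 19.01st, 15.4th and 12.8th, and the 31.8th, 25.3rd and 24.8th percentile in DMSO 1, 2 and 3. Those 438 and 532 kb away held an IRF site, printed in capitals to show it in a run of members.
MEF2C, 438 kb away, chr5:89342779-89342879: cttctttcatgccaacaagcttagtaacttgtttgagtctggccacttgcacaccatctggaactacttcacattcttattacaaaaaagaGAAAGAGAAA
MEF2C, 532 kb away, chr5:89436614-89436714: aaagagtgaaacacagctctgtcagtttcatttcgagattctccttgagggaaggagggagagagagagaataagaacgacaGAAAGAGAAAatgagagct

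The gene lists cover pathways known in myeloma, and each count is to be read against the 11.7% of all genes with an intergenic region within 200 kb that had a member. Of 23 ATF4 and stress genes 5 had a member within 200 kb as nearest gene, of 16 with any intergenic region there. The region 9.91 kb upstream of SESN2, a stress-induced sestrin, held an ATF4-CEBP site and stood at the 67.6th, 66.0th and 59.7th percentile in DMSO 1, 2 and 3, the 21st strongest member. The region 141 kb downstream of VEGFA, the vascular growth factor gene, also held the site (58.8th, 48.7th and 42.3rd). Regions lay 2.18 kb upstream of SLC7A5 (45.5th, 38.1st and 40.3rd) and 5.41 kb upstream of SLC3A2 (21.2nd, 20.4th and 13.6th), which code for the chains of the large neutral amino acid transporter. The fifth gene was PPP1R15A, which codes for a phosphatase subunit of the stress response.

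Of 15 MAPK regulators 4 had a member, of 14 with any intergenic region (11.7% over all such genes). DUSP5, DUSP6 and DUSP10 code for phosphatases of MAP kinases and MAP3K8 for a kinase upstream of them. The DUSP5 region, 5.35 kb upstream, held an ATF4-CEBP site (17.1st, 16.1st and 40.4th percentile). The DUSP6 region stood at the 26.6th, 22.3rd and 33.5th and the DUSP10 region at the 34.3rd, 33.5th and 21.2nd, while the MAP3K8 region was weak (14.3rd, 6.64th and 5.01st). CB-6644 peaks lay 0.305 kb from the DUSP6 region and 0.177 kb from the MAP3K8 region.

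Of 19 myeloma survival and surface genes 4 had a member, of 14 with any intergenic region. The CD28 region, 12.1 kb upstream of this costimulatory receptor gene, held an IRF site (46.4th, 51.1st and 38.9th percentile). The TNFRSF13B region, at a receptor gene of plasma cell survival, ran from the 64.5th percentile in DMSO 1 to 46.8 in DMSO 2 and 29.2 in DMSO 3. The chemokine receptor gene CCR1 and the Fc receptor-like gene FCRL5 had regions with percentiles between 18.5 and 33.7.

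Of 18 plasma cell regulators 2 had a member, of 12 with any intergenic region, and both were weak. The IRF4 region, 22.9 kb downstream of its start, stood at the 5.47th, 10.6th and 9.69th percentile, and the region 150 kb upstream of the elongation factor gene ELL2 at the 30.4th, 19.3rd and 12.8th. CDK6 and MYB were the 2 of 16 cell cycle genes with a member, of 12 with any intergenic region. Their regions stood at the 12.7th, 9.53rd and 4.02nd and at the 22.1st, 17.4th and 14.7th percentile. DNAJB9, an endoplasmic reticulum chaperone gene, was the only 1 of 18 secretory genes, of 11 with any intergenic region. Its region, 36.3 kb downstream, was among the stronger members (57.4th, 66.2nd and 73.1st). Of 19 interferon genes, 7 with any intergenic region, 0 had a member, a count too small to set apart from 11.7%.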

How the data were processed

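Omni-ATAC peak lists of 6 MM.1S libraries (3 CB-6644, 3 DMSO) were used. Per the labels, the authors used hg38 as genome build, Bowtie2 2.4.2 as aligner and MACS3 3.0 as peak caller, with 1 list per library. Each deposited list gives a fold enrichment over local background, a −log10 p, a −log10 q and a score made from it, and the authors did not scale these values between libraries. No read totals are given, so depth is unknown, and intervals cover counting error over regions only.

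Listed peaks on the autosomes and sex chromosomes were merged and placed against GENCODE 44 with Python 3.11.15, numpy 2.4.6, pandas 2.3.3 and scipy 1.17.1. The scripts were tested on simulated data. Pile-up and background were recovered from fold and −log10 p (tolerance 0.01 on −log10 p). Besides those spelled out in the report, the consensus sequences were CEBP TTGCGNAA, CRE TGACGTCA, MEF2 CTANNNNTAG, octamer ATGCAAAT, STAT TTCCNGGAA, ETS CCGGAAGT, XBP1 TGACGTGG, glucocorticoid ACANNNTGT, NFI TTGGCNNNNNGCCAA and the CTCF core by name, searched on both strands, where IRF and EICE can overlap.

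Members and lists were chosen with earlier results of these data known. The rule named the 12 strongest members, the 8 genes with the most members, the 3 fullest runs, the strongest members with ATF4-CEBP, IRF or EICE sites, up to 4 per gene list, the 3 farthest members and those on either side of the TSS limit. The rank comparisons by consensus, the 5 to 20 kb neighbors, the GC classes and the shares among members passing the scaling were added after seeing the data. Library values were compared by exact permutation, and alternatives changed the lists, merging, annotation, window and libraries.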

Additional observations from a re-analysis of the deposited data

How the results depend on the processing

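The count of DMSO-only intergenic regions kept within 1.5 times of its value under 14 of 19 alternatives. The 14 include the replicate block, which cannot change the count. The cause of the other changes was not tested unless fewer peaks or libraries make it plain. With equal numbers of peaks there were 864 DMSO-only (2.79% of intergenic regions) and 489 CB-6644-only regions, 16.3% of the former with ATF4-CEBP, and 26 genes with 2 or more. With the 20000 strongest peaks there were 311 (3.99%), 10.9% with ATF4-CEBP, 13.2% with IRF and 6 such genes. The 4 libraries with shortest peaks of at least 100 bp gave 3384 and 785 (10.4%, 10.8% with ATF4-CEBP, 310 genes) as deposited and 1204 CB-6644-only (7.23% DMSO-only, 10.7% with ATF4-CEBP) when scaled. A peak in at least 2 of 3 libraries gave 3850 and 797 (10.3%, 10.6% with ATF4-CEBP, 388 genes). Peaks covering 50% of a region gave 159 CB-6644-only (4.59% DMSO-only, 11.6% with ATF4-CEBP, 16.0% with IRF). Windows around summits gave 4.71%, a promoter distance of 10 kb 5.31%, regions outside all annotated genes 1252, and assignment within 1000 kb 287 genes. A motif window of 50 bp gave 8.59% ATF4-CEBP and 11.1% IRF, whole regions 16.5% and 20.7%, and reversed letters 2.65% and 4.88%.

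Leaving out 1 library at a time gave 331 to 496 CB-6644-only regions, 5.94% to 7.76% DMSO-only, 11.4% to 13.1% with ATF4-CEBP, 16.2% to 19.2% with IRF and 149 to 241 genes. Moves of over 1.5 times came without DMSO 1 (485 CB-6644-only regions, 7.76%, 226 genes), DMSO 3 (241 genes), CB-6644 2 (496 regions, 177 genes) and CB-6644 3 (434 regions). The neighbor difference turned to -0.080 within 10 kb and -1.48 by fold, and the promoter difference to -1.72 by fold. The differences for ATF4-CEBP, IRF and MAF kept their direction in 11 of 11 alternatives each, counting the replicate block, which cannot change them. Same-numbered libraries deviated with correlations of -0.44, -0.19 and 0.29, and the highest of all, 0.54, was between DMSO 1 and CB-6644 2. No pairing by number was seen. Deviations from a mean of 3 libraries are not independent, so these correlations cannot settle whether the samples were paired. The replicate block could not change the counts of 1886 and 258, since it asks for the same presences and absences. Nor could it change the differences of 1.57, 0.60, 7.37, 4.72 and -7.25 for neighbors, promoters, ATF4-CEBP, IRF and MAF. Its agreement is therefore no check of them.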
